A study of Mus musculus with 12 samples.

Results

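The cytosolic ribosomal protein genes are the protein-coding genes whose symbols are Rpl or Rps followed by digits and at most 1 letter, together with Rplp0, Rplp1, Rplp2 and Rpsa. Rpl3, Rpl3l, genes with a Gm symbol and pseudogenes were left out. The rule found 78 of the 51911 features in the count tables, 47 of the large and 31 of the small ribosomal subunit. Ribosomal protein genes with other symbols, such as Rps3a1, Fau and Rack1, fall outside the spelling and are given apart. The study sequenced total RNA from mouse hearts of the genotypes PTCD1 knockout (KO) and wild type (WT), and asked what the loss of PTCD1, a mitochondrial RNA-binding protein with pentatricopeptide repeats, does to RNA levels. Each genotype was sequenced untreated and after CMC, a carbodiimide that binds pseudouridine and disturbs reverse transcription, with 3 libraries in each of the 4 groups. Cytoplasmic ribosomal RNA was removed from all libraries. The sources used here give neither strain, age or sex nor the cells in which the gene was deleted, and they do not say whether replicates are separate animals, so that p-values measure the spread between these libraries, which may be technical.

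A cytosolic ribosome is built from a large subunit, which joins amino acids and carries the exit tunnel for the new chain, and a small subunit, which decodes the mRNA. Nearly every ribosomal protein is present as 1 copy per ribosome, and its mRNA in vertebrates begins with a C followed by a stretch of pyrimidines, the terminal oligopyrimidine (TOP) motif, through which mTOR signalling and the RNA-binding protein LARP1 control its translation and stability. In heart muscle, ribosome production is known to rise during hypertrophic growth. These ribosomes are distinct from the mitochondrial ribosome, whose protein genes carry Mrpl and Mrps symbols and whose assembly PTCD1 takes part in.

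The start sites of 8 members that the results turn on are shown from 40 bases before to 20 bases after the RefSeq start, 5′ to 3′ on the transcript strand, with capitals marking a TOP-like run, a C followed by at least 7 pyrimidines. Rpsa is the small subunit member with most counts, Rps16, Rps26, Rpl10 and Rpl35 were among the members with large differences between KO and WT, and Rps2, Rplp2 and Rps27 had the lowest log2 fold changes. The windows lie on GRCm38.p6 at chr9:120127726-120127785 (+) for Rpsa, chr7:28350649-28350708 (+) for Rps16, chr10:128626487-128626546 (-) for Rps26, chrX:74270776-74270835 (+) for Rpl10, chr2:39005112-39005171 (-) for Rpl35, chr17:24720023-24720082 (+) for Rps2, chr7:141447611-141447670 (+) for Rplp2 and chr3:90213629-90213688 (-) for Rps27.
Rpsa: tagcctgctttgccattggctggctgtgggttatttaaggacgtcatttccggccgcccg
Rps16: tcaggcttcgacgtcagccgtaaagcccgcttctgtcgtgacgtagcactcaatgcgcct
Rps26: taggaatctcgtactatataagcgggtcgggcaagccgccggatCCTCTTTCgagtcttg
Rpl10: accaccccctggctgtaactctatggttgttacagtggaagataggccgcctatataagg
Rpl35: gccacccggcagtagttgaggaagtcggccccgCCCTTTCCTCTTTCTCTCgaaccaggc
Rps2: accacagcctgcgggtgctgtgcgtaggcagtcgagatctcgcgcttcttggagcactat
Rplp2: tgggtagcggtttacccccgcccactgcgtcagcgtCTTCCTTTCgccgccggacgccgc
Rps27: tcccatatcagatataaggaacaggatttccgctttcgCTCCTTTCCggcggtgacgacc

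RefSeq promoters were matched for 59 members, and the other 19 had no entry in the table used. The 59 members had 70 promoters, and a gene was counted if any of its listed promoters held the letters. On the transcript strand, a TOP-like run lay within 50 bases of a start in 50 of the 59 members (84.7%), against 31.9% of 26966 other genes. Counted on both strands, the shares were 89.8% and 56.3%. The letters CTTTCC occurred on the transcript strand of 32.2% of members and 5.37% of other genes in the same window, and some of these matches lie inside a TOP-like run. The ETS-type letters CCGGAAG occurred on either strand in 13 of the 59 members and in 5.94% of other genes. The E-box CACGTG reads the same on both strands and occurred in 3.39% of each, and TATAAA on the transcript strand in 6.78% and 4.05%. TGATGNAA, the letters of an ATF4-type element, occurred on either strand in 0 of the 59 members and in 1.33% of other genes, which says only that these letters are not in these windows. The 49 tested members with the run had a median log2 fold change of KO over WT of 0.71 in untreated libraries, and the 8 without it had 0.69. These 49 include Rps16, Rpl10 and Rps2, which have a run in this wider window of a listed promoter but none in the shorter stretch printed above. A match is a description of the sequence and not evidence of a binding site.

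Counts summed to 10389398 to 12462093 per library, of which mitochondrial transcripts took 70.5% to 75.4%, so 2683284 to 3187748 nuclear counts stand behind the values here. Ptcd1 had 64 counts over the 3 untreated KO libraries and 223 over the WT ones, a log2 fold change of -1.94 (edgeR adjusted p = 1.52e-19), and -1.96 after CMC, which follows the labels. Counts of replicates scattered 1.12 to 1.27 times more than sampling in 3 groups (chi-square per degree of freedom) but 1.90 times in the CMC-treated WT group, where the value without replicate 3 was 1.37. Replicate 3 of the CMC-treated WT group thus stood apart. For the comparisons that use it, the counts of members called are also given without it, but most other values are not. Of the cell type markers, the summed level of 7 cardiomyocyte genes (Myh6, Actc1, Tnnt2, Tnni3, Ryr2, Myl2 and Mb) was 38130 to 38260 counts per 1000000 scaled nuclear counts (CPM) in untreated KO and 81530 to 84210 in WT libraries, and all 7 were lower. After CMC the sums were 41550 to 42690 and 78040 to 86780. The heart muscle markers were abundant in every library, as the tissue label requires. Macrophage markers summed to 214 to 228 CPM in untreated KO and 161 to 168 in WT libraries, with 4 of the 6 tested higher, and 5 genes of dividing cells to 69.7 to 85.0 and 22.5 to 32.4, with both tested genes higher. Over all genes tested in untreated libraries, 29.1% were called higher in KO and 28.7% lower, beside which all these marker counts stand. Among 7 fibroblast markers 3 of 6 tested were higher and 2 lower. Among 7 endothelial markers 1 of 7 was higher and 3 lower. Of the smooth muscle and pericyte markers 4 of 6 were lower, and of the erythroid markers 4 of 5. The 7 lymphocyte markers summed to at most 5.29 CPM in untreated libraries, none was abundant enough to be tested, and 3 of them had 0 counts in all untreated WT libraries.

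The ribosomal protein genes were higher in untreated KO than in untreated WT hearts almost throughout. Of the 76 members tested, 74 rose and 1 fell at an adjusted p under 0.05 (edgeR quasi-likelihood test, Benjamini-Hochberg), while 29.1% of all 12195 nuclear genes tested were called higher and 28.7% lower. The median log2 fold change of the members was 0.70, a 1.62-fold difference, against 0.00 over all genes tested. In 73 members every KO library lay above every WT library, which held for 30.8% of all genes, and in 1 member, Rps2, every KO library lay below, which held for 30.5%. In Rplp2 and Rps27 the groups overlapped. Of the 78 members, Rpl10l and Rpl39l had too few counts to be tested. In tissue RNA, fewer cells of a type and less RNA per cell cannot be told apart, and the part of the lower cardiomyocyte and higher macrophage and dividing-cell markers in these differences was not tested.

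Of all nuclear counts, the members together took 1.55%, 1.56% and 1.56% in untreated KO libraries, while their share in untreated WT libraries was 0.914%, 0.906% and 0.892%. The shares did not overlap between genotypes and were 1.56% ± 0.00341 in KO and 0.904% ± 0.0111 in WT (SD, n = 3 each). After CMC they were 1.52% ± 0.00920 in KO and 0.904% ± 0.0173 in WT, again without overlap. As the chosen members are summed, no test was made on these shares.

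**Figure D1:**
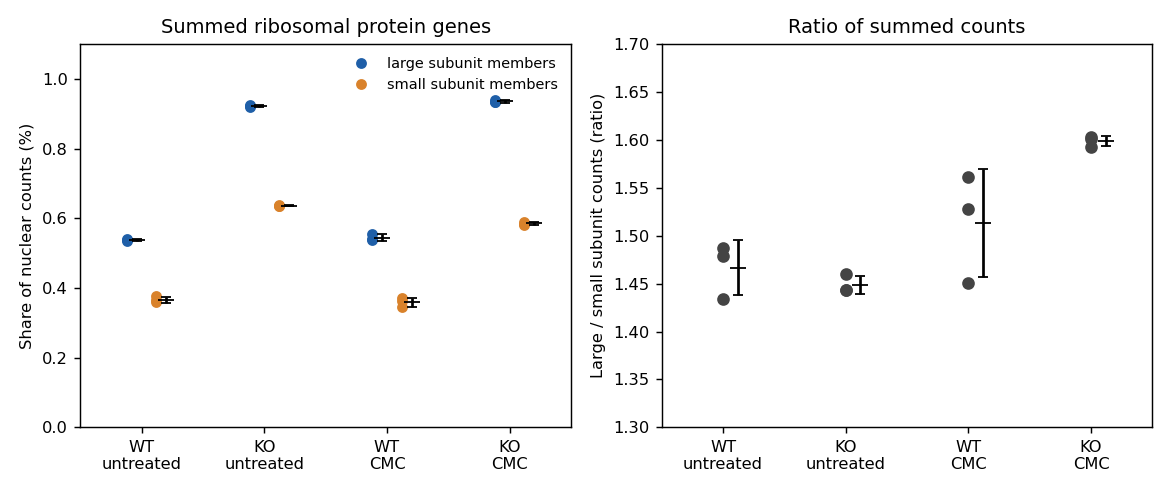
Left, summed counts of large (blue) and small (orange) subunit members as a percentage of nuclear counts, and right, the ratio of large to small subunit counts, in each of the 12 libraries by group; points are libraries, and black bars mark the mean ± SD (n = 3). Shares are higher in all 6 KO than in all 6 WT libraries, and the ratio is highest in the CMC-treated KO libraries.

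In untreated libraries nearly all members of both subunits were higher in KO. Of 45 large subunit members tested, 44 rose, and their median log2 fold change was 0.67 with a range of 0.02 to 1.27. Of 31 small subunit members, 30 rose and 1 fell, with a median of 0.74 and a range of -0.22 to 1.95. Most differences were moderate, since 60 members lay between 0.4 and 1 on the log2 scale, 11 above and 5 below. The ratio of summed large to small subunit counts was 1.44, 1.44 and 1.46 in the KO and 1.43, 1.48 and 1.49 in the WT libraries. These ratios overlapped between the genotypes.

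**Figure D2:**
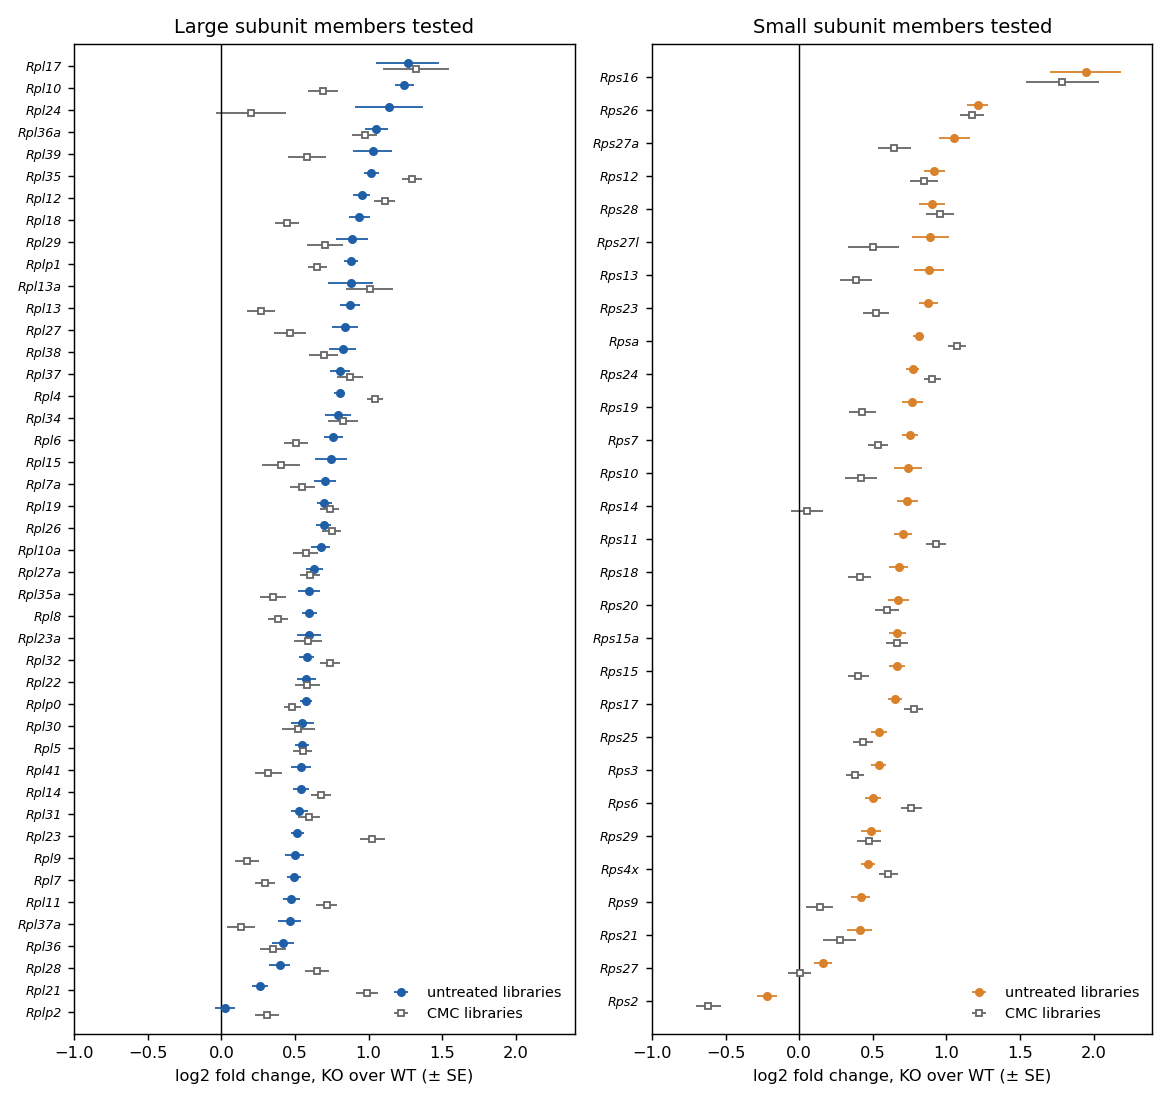
Log2 fold change of KO over WT (x axis, ± SE) for the tested members of the large (left) and small (right) subunit that are reported by name, from untreated (filled) and CMC-treated libraries (open squares), ordered by the untreated value. Rps2 alone lies below 0 in both comparisons, and Rps16 has the largest value in both.

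**Figure D3:**
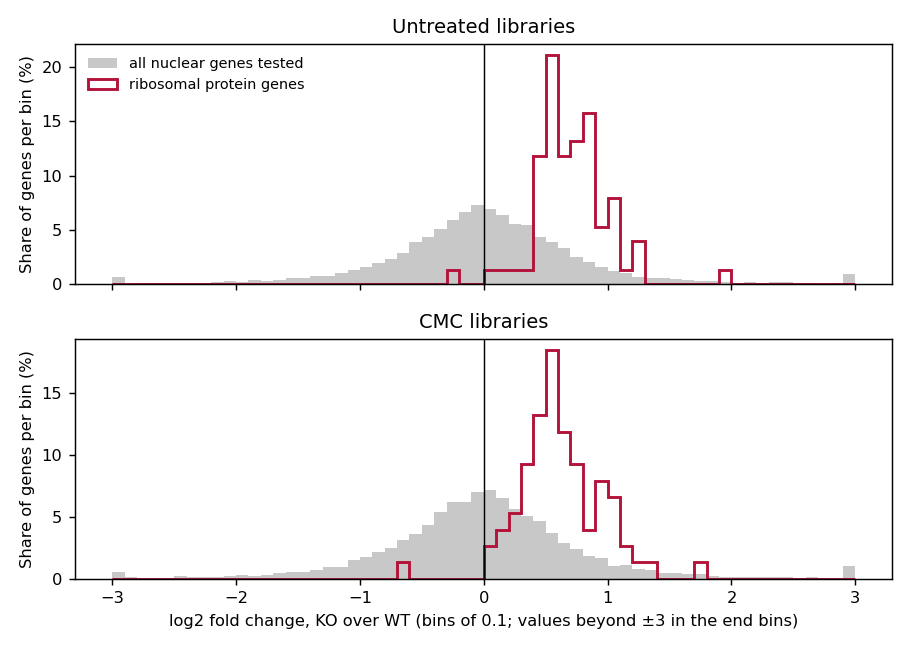
Share of genes (y axis, %) by log2 fold change of KO over WT (x axis, bins of 0.1) for all nuclear genes tested (grey) and the 76 ribosomal protein genes (red outline), in untreated (top) and CMC-treated libraries (bottom). The medians of the members are 0.70 and 0.58, while those of all genes lie near 0.

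Among proteins that face the mRNA and tRNA, Rps16, whose tail reaches the tRNA in the P site, differed most. Rps16 stood at 17.9, 14.1 and 16.5 CPM in untreated KO and at 5.90, 4.23 and 2.43 CPM in untreated WT libraries. The groups did not overlap, but the counts were low, 17, 12 and 7 in WT, and 2 pseudogenes carry the name of Rps16. The log2 fold change was 1.95 ± 0.24 (SE; edgeR adjusted p = 3.54e-13), a 3.85-fold difference. Rps26, which lies by the mRNA exit channel and is mutated in human Diamond-Blackfan anaemia, had 164, 169 and 157 CPM in KO and 65.6, 74.0 and 72.1 CPM in WT libraries. Its groups did not overlap either, and it rose 2.32-fold (log2 1.21 ± 0.07, edgeR adjusted p = 1.62e-43). Rps27a, which is made as a fusion with ubiquitin, rose by a log2 fold change of 1.05. A list of 6 small subunit members was named the decoding region, though not all lie at the decoding site itself. Of these, Rps3, Rps13, Rps15, Rps18 and Rps23 rose by 0.54 to 0.88 on the log2 scale, and Rps2 fell. Over all 76 tested members 74 rose and 1 fell, against 29.1% and 28.7% of all genes.

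Rps2, at the mRNA entry side of the small subunit, went the other way. Rps2 was measured at 117, 114 and 104 CPM in KO and 146, 122 and 124 CPM in WT libraries. The lowest WT library lay above the highest KO library. Rps2 fell by 0.22 ± 0.07 on the log2 scale (edgeR adjusted p = 0.00275), and without WT untreated replicate 1 the log2 fold change was -0.14 and the edgeR adjusted p 0.123. The authors' deposited table gives Rps2 a log2 fold change of -0.20 with an adjusted p of 0.124. Exons of Rps2 overlap 1 feature on the same and 1 on the opposite strand, and 10 pseudogenes carry its name, so its counts may be shared with them. Rps27, a zinc-finger protein of the small subunit, had 151, 167 and 176 CPM in KO and 141, 161 and 141 CPM in WT libraries, and the groups overlapped. Its log2 fold change was 0.16 ± 0.06 (edgeR adjusted p = 0.0169), with an adjusted p of 0.132 by DESeq2, 0.0516 in an edgeR fit of all 12 libraries, 0.160 without KO untreated replicate 3, 0.114 without WT untreated replicate 1 and 0.0978 without WT untreated replicate 3.

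The P stalk of the large subunit, which recruits the elongation factors, was made of members with unequal differences. Rplp0, its base, had 519, 511 and 536 CPM in KO and 346, 335 and 371 CPM in WT libraries. Rplp1 had 425, 386 and 406 CPM in KO and 203, 234 and 225 CPM in WT libraries. Neither pair of groups overlapped, and Rplp0 rose 1.49-fold (edgeR adjusted p = 4.57e-33) and Rplp1 1.84-fold (edgeR adjusted p = 3.49e-49). Rplp2, the dimer partner of Rplp1, had 128, 122 and 132 CPM in KO and 121, 122 and 134 CPM in WT libraries. These groups overlapped, and the log2 fold change of 0.02 ± 0.07 did not pass the test (edgeR adjusted p = 0.777). Exons of Rplp2 overlap 1 feature on the same strand, and 1 pseudogene carries the name of Rplp0 and 1 that of Rplp1. The counts may be shared with these features. The difference between stalk members was not itself tested.

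The 8 members that line the exit tunnel or its rim, Rpl4, Rpl17, Rpl19, Rpl23a, Rpl26, Rpl31, Rpl35 and Rpl39, all rose, with a median log2 fold change of 0.75. So did 74 of all 76 tested members, with a median of 0.70, against 29.1% of all genes. Rpl17 had 22.5, 17.0 and 12.4 CPM in KO and 5.90, 8.81 and 6.93 CPM in WT libraries, without overlap, and the largest log2 fold change of the large subunit, 1.27 ± 0.21 (edgeR adjusted p = 3.68e-08). As 10 pseudogenes bear the name of Rpl17, its level is uncertain. Rpl35 had 288, 307 and 297 CPM in KO and 153, 153 and 134 CPM in WT libraries. The lowest KO library of Rpl35 lay far above the highest WT library, and the log2 fold change was 1.02 ± 0.05 (edgeR adjusted p = 5.31e-50).

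Rpl10, a late-joining protein near the peptidyl transferase centre, had 204, 201 and 200.3 CPM in KO and 93.0, 84.9 and 78.6 CPM in WT libraries. The lowest KO value was above the highest WT value, and Rpl10 rose 2.37-fold (log2 1.24 ± 0.06, edgeR adjusted p = 3.42e-50). Rpl10 is 1 of 4 X-linked members, which all rose, with Rpl36a at a log2 fold change of 1.05, Rpl39 at 1.03 and Rps4x at 0.47. Among all 76 tested members 74 rose, against 29.1% of all genes. Rpl10l and Rpl39l, paralogues that take the place of X-linked genes in male germ cells, were near absent. Rpl10l had 0 counts in all 12 libraries, and Rpl39l had 2 counts in untreated KO replicate 1, 1 in CMC-treated KO replicate 1 and 0 elsewhere. Rps27l, the paralogue of Rps27 that p53 induces, had 35.7, 47.5 and 46.7 CPM in KO and 21.2, 26.1 and 22.9 CPM in WT libraries and rose 1.85-fold (edgeR adjusted p = 6.5e-11). Its groups did not overlap, in contrast to the values of Rps27.

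Rpl5 and Rpl11, which with the 5S RNA can leave the ribosome and bind Mdm2, the ubiquitin ligase of p53, were higher in KO by similar amounts. Rpl5 had 326, 317 and 333 CPM in KO and 205, 245 and 218 CPM in WT libraries, and Rpl11 had 209, 210.0 and 206 CPM and 149.5, 158 and 143 CPM. Neither overlapped between genotypes, and the log2 fold changes were 0.55 ± 0.05 and 0.48 ± 0.06 (edgeR adjusted p = 1.91e-23 and 1.95e-14). Of all 76 tested members 74 rose, with a median log2 fold change of 0.70, against 29.1% of all genes. Of 17 members known as Diamond-Blackfan anaemia genes in humans, 17 rose, with a median of 0.74, so they were like the members at large. The count includes Rps27, whose call was lost under the alternatives above. Rps19, the most often mutated of these, had 146, 141 and 145 CPM in KO and 84.0, 89.5 and 80.4 CPM in WT libraries. Its groups did not overlap and it rose by 0.77 ± 0.07 on the log2 scale (edgeR adjusted p = 9.15e-23). Rps6, the substrate of the S6 kinases downstream of mTOR, had 219.5, 233 and 229.6 CPM in KO and 166, 158 and 159 CPM in WT libraries, again without overlap, and rose 1.42-fold (edgeR adjusted p = 9.97e-17). Rpsa, also known as the laminin receptor, was the small subunit member with most counts, at 806, 806 and 789 CPM in KO and 459, 457 and 454 CPM in WT libraries. Its groups did not overlap, and it rose 1.76-fold (edgeR adjusted p = 2.61e-61).

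Levels differed widely between members when expressed per kilobase of annotated exon. In untreated WT libraries the order was led by Rplp1 with 442 ± 32.7 CPM per kilobase (SD, n = 3), Rps24 with 340.0 ± 29.0, Rps15 with 256 ± 9.49 and Rpl4. Rpl4, at 498, 508 and 499.6 CPM before division by length, was the large subunit member with most counts. Further down, Rpl8 with 212 ± 11.4 and Rplp0 with 211 ± 10.9 CPM per kilobase did not differ beyond their spread. The order rests on the annotated exon lengths, and without division by length 4 of the 10 highest members were the same. The lowest tested members were Rps16 with 3.30 ± 1.37 CPM per kilobase, Rpl24 with 5.97 ± 0.730, Rpl13a with 7.37 ± 0.739 and Rpl17 with 9.31 ± 1.90. Exons of Rpl13a overlap 3 features on the same strand and those of Rpl24 overlap 1. Named pseudogenes number 10 for Rpl17 and 2 for Rps16. Whether this lowered the counts of these members was not tested. These 4 also had differences in untreated libraries above the median of the members, log2 fold changes of 0.88 for Rpl13a and 1.14 for Rpl24. Across the 76 members, the log2 fold change and the log2 level in WT had a Pearson correlation of -0.556 (Spearman -0.471). As the WT level is the base of the fold change, both share its counting error. With exon length the Pearson correlation was -0.100, and with the number of pseudogenes that carry the member's name -0.0655. These values are across genes, which are not independent replicates.

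Many members share sequence with processed copies, and 57 have at least 1 of 287 named pseudogenes, while exons of 35 overlap another feature on either strand. The named pseudogene features took 0.0803% ± 0.000681 of nuclear counts in untreated KO and 0.0461% ± 0.00185 in WT libraries (SD, n = 3). Of 29 tested, 22 were called higher and 0 lower, against 29.1% and 28.7% of all genes, with a median log2 fold change of 0.71. Whether these reads belong to the copies or to the members cannot be told from the tables. Of the 14 members with neither a named pseudogene nor an overlapping feature, a group chosen after the values were seen, 12 were tested and 12 rose in untreated libraries, with a median log2 fold change of 0.57 and a lowest value of 0.41.

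The authors' deposited table, which gives a fold change and adjusted p for each gene, holds 76 members with an adjusted p. The table does not name its direction, which was read as KO over WT from Ptcd1 at -1.93. Of the members in the authors' deposited table, 73 have a positive log2 fold change at an adjusted p under 0.05 and 0 a negative one, and all 76 carry the sign found here. Over all 15426 genes with an adjusted p in the authors' deposited table, 4967 are under 0.05 and 2589 of these are positive.

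Other genes of the cytosolic translation apparatus were listed with earlier results known. Over all 12195 genes tested, 29.1% were called higher and 28.7% lower, beside which the lists of this and the next paragraph stand. The 4 ribosomal protein genes with other symbols rose, among them Rack1 by 0.86, Fau by 0.61 and Rps3a1 by 0.47 on the log2 scale. Of 8 elongation factor genes 7 rose and 1 fell. Eef1a1, the aminoacyl-tRNA carrier of most tissues, rose by 1.61, Eef1e1 by 1.13, and Eef2, which moves the ribosome along, by 0.86. Eef1a2, the form of adult heart and muscle, fell by 0.27 (edgeR adjusted p = 2.94e-13). Its values were 694, 762 and 692 CPM in KO and 883, 842 and 868 CPM in WT libraries, and those of Eef1a1 were 2834, 2898 and 2912 CPM and 954, 1001 and 888 CPM. Both genes had separate groups, in opposite directions. Of 13 tested eIF3 subunit genes 12 rose, led by Eif3c with a log2 fold change of 1.41, while Eif3f did not pass the test. Of 13 other TOP genes 8 rose, among them Btf3 (1.40) and the nucleolar genes Ncl (1.39) and Npm1 (0.97), and 1, Ybx1, fell (-0.14).

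Of 6 tested non-coding hosts of small nucleolar RNAs 5 rose, including Gas5, itself a TOP RNA (1.23), Snhg1 (1.28) and Snhg12 (1.52). Of 16 tested assembly factors and chaperones of ribosomal proteins 10 rose and 0 fell, led by Grwd1, the chaperone of Rpl3, with a log2 fold change of 1.80 and Ltv1, an assembly factor of the small subunit, with 1.41. Of 11 tested genes for the quality control of stalled ribosomes 9 rose and 1 fell, with Gtpbp2 at 1.25, Ascc3 at 1.20 and Nemf at -0.24. Of 3 tested paralogues outside the rule, Rpl22l1, Rpl7l1 and Rpl36al, 3 rose, by 0.46 to 0.93, and Rps27rt was too low to be tested. The median log2 fold change was 0.70 for the members and -0.0035 over all genes tested. It was 0.68 for elongation factors, 0.50 for eIF3 and 0.43 for other TOP genes. For the hosts of small nucleolar RNAs it was 1.20, for assembly factors 0.53 and for quality control 0.47.

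In CMC-treated libraries the same comparison again gave higher members in KO. Of 76 tested, 69 rose and 1 fell (edgeR adjusted p under 0.05), against 27.2% of 12198 genes called higher and 26.8% lower. Without CMC-treated WT replicate 3, 67 rose, and Rps27l and Rpl13 were no longer called (edgeR adjusted p = 0.122 and 0.147). Although the untreated comparison used other libraries, the labels do not say whether untreated and CMC-treated libraries came from the same hearts or RNA, so the comparisons may not be independent. In both, 68 members were called higher. The median log2 fold change was 0.59 for 45 large subunit members, of which 42 rose, and 0.54 for 31 small subunit members, of which 27 rose and 1 fell, while over all genes it was -0.01. In 66 members every KO library lay above every WT library, which held for 29.8% of all genes, and in Rps2 every KO library lay below, which held for 29% of all genes. Over the 76 members, the log2 fold changes of untreated and CMC-treated libraries had a Pearson correlation of 0.632 (Spearman 0.441). Of the 12 tested members without pseudogene or overlap, 9 rose after CMC, with a median of 0.44. By role, the P stalk had 3 of 3 members higher, the exit tunnel 8 of 8 with a median of 0.74, the decoding region 5 of 6 with Rps2 lower and a median of 0.39, the Diamond-Blackfan anaemia genes 16 of 17 with a median of 0.54, and the X-linked members 4 of 4 with a median of 0.65. Of the other lists, 4 of 4 ribosomal protein genes with other symbols, 2 of 3 paralogues, 7 of 8 elongation factors, 11 of 14 eIF3 subunits, 10 of 13 TOP genes, 6 of 6 hosts of small nucleolar RNAs, 11 of 16 assembly factors, 8 of 11 quality control genes and 16 of 26 pseudogenes were called higher after CMC. An elongation factor and an eIF3 subunit were called lower, Eef1a2 and Eif3f.

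Rps16 (1.79 ± 0.25), Rpl17 (1.32 ± 0.23), Rpl35 (1.29 ± 0.07) and Rps26 (1.17 ± 0.08) had the largest log2 fold changes (± SE) after CMC. Rps2 fell again, with 89.0, 98.8 and 97.5 CPM in KO and 148, 159 and 128 CPM in WT libraries. The groups did not overlap, and the log2 fold change was -0.62 ± 0.09 (edgeR adjusted p = 2.78e-07), and between -0.69 and -0.54 with 1 library left out. Rplp2 had 138, 155 and 145 CPM in KO and 119, 104 and 129.7 CPM in WT libraries after CMC, without overlap, and rose 1.24-fold (edgeR adjusted p = 0.00195). The difference between the genotype effects on Rplp2 in CMC-treated and untreated libraries did not pass the test (log2 difference 0.30 ± 0.10, edgeR adjusted p = 0.156). The members that did not pass after CMC were Rps27, Rps14, Rpl37a, Rps9, Rpl9 and Rpl24, with log2 fold changes of 0.00 to 0.20. Rps27 had 144, 148 and 154 CPM in KO and 154, 158 and 132 CPM in WT libraries, which overlapped.

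CMC was applied to RNA after its isolation, per the labels' protocols, so CMC against untreated compares the read counts of treated and untreated RNA and not hearts under a treatment. In WT, 2 members were called higher and 6 lower after CMC, against 0.967% and 1.26% of 12099 genes tested, and the median log2 fold change of the members was 0.00. Without CMC-treated WT replicate 3, 8 were called higher and 9 lower. Without any 1 of the other 5 libraries the counts were 0 to 1 and 2 to 5, the lowest without WT untreated replicate 1, and DESeq2 called 0 higher and 4 lower. Rpl30, which in yeast binds its own transcript, had 66.3, 65.9 and 68.9 CPM in untreated and 42.0, 39.6 and 48.6 CPM in CMC-treated WT libraries. The groups of Rpl30 did not overlap. Over the 12099 genes this was common, with 1117 higher and 1178 lower after CMC without overlap. The log2 fold change of Rpl30 was -0.63 ± 0.10 (edgeR adjusted p = 0.000128). Rps23, of the decoding centre, had 96.5, 96.5 and 99.4 CPM untreated and 63.9, 67.5 and 78.0 CPM after CMC, a log2 fold change of -0.48 ± 0.09 (edgeR adjusted p = 0.00117), also without overlap. Rps21 (-0.39), Rpl21 (-0.31), Rpsa (-0.30) and Rps4x (-0.29) were the other members called lower, and Rpl41 (0.39), the shortest ribosomal protein, and Rpl18 (0.34) those called higher. By DESeq2, Rps21, Rpl41 and Rpl18 were not called (adjusted p = 0.214, 0.0833 and 0.131). In edgeR, the call of Rps21 was also lost without any 1 of the libraries other than CMC-treated WT replicate 3 (adjusted p = 0.0634 to 0.204).

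In KO, 11 members were called higher and 28 lower after CMC, against 6.77% and 5.36% of 11967 genes tested, and DESeq2 called 6 and 16. The median log2 fold change was -0.07 for large subunit members, with 9 higher and 14 lower, and -0.15 for small subunit members, with 2 higher and 14 lower. Without CMC-treated KO replicate 2 or without replicate 3, 7 members were called higher. Rps23 fell most, with 182, 182 and 171 CPM in untreated and 107, 99.2 and 95.4 CPM in CMC-treated KO libraries. These did not overlap, and the log2 fold change was -0.83 ± 0.06 (edgeR adjusted p = 2.23e-18). Of the 11967 genes, 1703 were higher and 1528 lower after CMC without overlap. Rps27l (-0.81), Rpl15 (-0.72), Rpl30 (-0.65) and Rpl10 (-0.62) came next on the log2 scale. Among the members called higher, Rpl28 had 120.4, 118 and 104 CPM in untreated and 142, 153 and 143 CPM in CMC-treated KO libraries, without overlap, a log2 fold change of 0.34 ± 0.07 (edgeR adjusted p = 5.68e-05). Rpl21 (0.42) and Rpl35 (0.34) were also called higher.

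The ratio of summed large to small subunit counts lay between 1.592 and 1.602 in the CMC-treated KO libraries, above the 1.44 to 1.46 of the untreated KO libraries. In WT it was 1.53, 1.45 and 1.56 after CMC, which overlapped with the untreated values. After CMC the KO libraries lay above all 3 WT libraries. Divided by exon length, the ratios were 1.59 to 1.61 in CMC-treated and 1.45 to 1.47 in untreated KO libraries. No test was made of these ratios.

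The genotype effect differed between CMC-treated and untreated libraries for 10 of 76 members, 5 with a larger and 5 with a smaller KO over WT value after CMC, against 1.08% and 0.391% of 12786 genes tested (edgeR quasi-likelihood test of the interaction, adjusted p under 0.05). Without CMC-treated WT replicate 3 the counts were 9 and 17, and the 10 members stayed under 0.05. Only 3 had a larger effect without any 1 of the untreated KO libraries, WT untreated replicate 2, CMC-treated KO replicate 2 or CMC-treated WT replicate 2, and the last of these also left 3 with a smaller one. Rpl21 had the smallest p. In KO libraries Rpl21 had 207, 212 and 199 CPM untreated and 276, 281 and 274 CPM after CMC. In WT libraries Rpl21 had 175, 179.7 and 162 CPM untreated and 149.6, 123 and 144 CPM after CMC. KO and WT did not overlap in either condition, and their distance grew after CMC, with a log2 difference of effects of 0.74 ± 0.09 (edgeR adjusted p = 1.45e-07). Exons of Rpl21 overlap 2 other features on the same strand, and 15 pseudogenes carry its name. Rpl23, of the subunit interface, has neither, and had 385, 409 and 402 CPM untreated and 504, 525 and 473 CPM after CMC in KO libraries. Its WT values were 286, 269 and 283 CPM untreated and 250.2, 192 and 295 CPM after CMC. Replicates 1 and 2 of WT were lower and replicate 3 higher after CMC than any untreated WT library, while all KO libraries were higher after CMC, with a log2 difference of effects of 0.52 ± 0.10 (edgeR adjusted p = 0.000654).

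Rps14, of the small subunit platform, showed the opposite, with 128, 142 and 134 CPM untreated and 86.1, 92.2 and 104 CPM after CMC in KO libraries. In WT libraries it had 88.5, 73.6 and 80.4 CPM untreated and 105, 97.9 and 67.8 CPM after CMC. KO and WT were separate in untreated and overlapped in CMC-treated libraries, where replicate 3 of WT was lowest. The log2 difference of effects was -0.68 ± 0.13 (edgeR adjusted p = 0.00166). The other members called included Rpsa (0.27) and Rpl4 (0.25), with larger effects after CMC, and Rpl13 (-0.60), Rpl10 (-0.54) and Rpl18 (-0.48), with smaller ones.

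**Figure D4:**
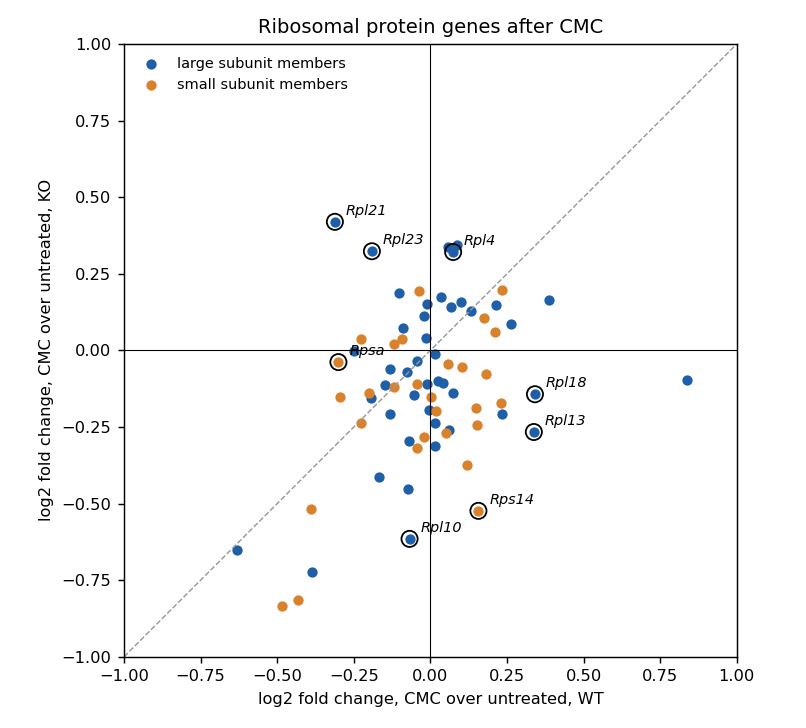
Log2 fold change of CMC over untreated in KO (y axis) against WT (x axis) for the members tested in both and reported by name, with large subunit members in blue and small subunit members in orange; the dashed line marks equal change. Rings mark 8 of the 10 members whose genotype effect differed between CMC-treated and untreated libraries, among them Rpl21 at -0.31 in WT and 0.42 in KO.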

How the data were processed

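Total RNA of mouse hearts was depleted of cytoplasmic ribosomal RNA and made into TruSeq libraries, per the labels' protocols. The submitters' processing notes list the build mm10 and, with no roles given, HISAT2 (2.0.5), featureCounts (1.5.1), SAMtools (1.5) and DESeq2 (1.16.1). They do not state how strand or reads with several matches were treated in counting. The authors deposited raw counts per gene in separate tables for untreated and CMC-treated libraries, and a table with log2 fold changes, their standard errors, p-values and adjusted p-values of untreated KO against WT.

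The GENCODE M21 annotation of mm10 gave symbols, gene types and positions, by gene IDs without version (51682 of 51911 features). Features on the mitochondrial chromosome were left out, so that 51875 nuclear features entered. Each pair of groups was fitted with its 6 libraries in edgeR 4.0.16 (R 4.3.3) after filterByExpr and TMM scaling over nuclear genes, and tested with the quasi-likelihood test with Benjamini-Hochberg adjustment over all genes, called at 0.05. The interaction used all 12 libraries. Each SE was derived as the absolute log2 fold change divided by the square root of the F statistic of this test. CPM are counts per 1000000 TMM-scaled nuclear counts. The 2683284 to 3187748 nuclear counts per library limit the precision of rare members. Alternatives were all-gene TMM, RLE, scaling without the members, DESeq2 1.42.0, no filter, a replicate block, all libraries in 1 fit and leaving out each library, with counts per exon length and members without pseudogene or overlap added after seeing the data.

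Named genes were the 4 largest called changes each way per subunit with a mean of at least 10 CPM, members with known roles, paralogues, up to 3 called members each way for CMC, up to 5 for the interaction and up to 4 per other list; further members were named after their values were seen. Members, lists and tests were chosen with earlier results of these data known. Promoters are RefSeq sequences on GRCm38.p6, 250 bases before to 50 after the start. Protein sequences were not used here. A few genes enter all counts and fits but are not reported here by name.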

Additional observations from a re-analysis of the deposited data

Results flagged for a closer look

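For the 8 ribosomal protein genes given here the KO over WT effect differed between CMC-treated and untreated libraries, by the interaction term of the edgeR quasi-likelihood fit over all 12 libraries (3 per group) with Benjamini-Hochberg adjustment. The log2 difference of effects, CMC minus untreated, was 0.74 for Rpl21 (edgeR adjusted p = 1.45e-07), 0.52 for Rpl23, 0.27 for Rpsa and 0.25 for Rpl4, whose effects were larger after CMC. It was -0.68 for Rps14 (edgeR adjusted p = 0.00166), -0.60 for Rpl13, -0.54 for Rpl10 and -0.48 for Rpl18, whose effects were smaller. Of these, Rpl21, Rpl23, Rps14 and Rpl13 kept an adjusted p under 0.05 with each of the 12 libraries left out in turn. Rpsa was lost without 9 of the 12 libraries, Rpl4 without 7, Rpl18 without 3 and Rpl10 without 1, CMC-treated WT replicate 2.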

How the results depend on the processing

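Members called higher in KO numbered 73 to 74 in untreated and 65 to 70 in CMC-treated libraries under every alternative run on all members, and the subunit medians stayed within 0.63 to 0.76 and 0.53 to 0.64 on the log2 scale. Leaving out 1 library gave 0 to 1 members called lower in untreated libraries, and for members that did not pass the test, log2 fold changes of -0.0055 to 0.071 for Rplp2, and after CMC -0.062 to 0.059 for Rps27 and -0.10 to 0.18 for Rps14; Rps27 was at -5.93e-05 with TMM over all genes. Members without pseudogene or overlap gave 12 higher and 0 lower untreated, 9 and 0 after CMC, of 12 tested. For CMC in WT, leaving out 1 library gave 0 to 8 members higher and 2 to 9 lower, and 24 to 343 and 49 to 406 of all genes; DESeq2 gave 0 members higher and 27 and 53 genes, no filter 4 members higher, and the 12-library fit 203 and 233 genes. For CMC in KO, leaving out 1 library gave 7 to 12 members higher, and DESeq2 6 higher and 16 lower and 368 and 206 genes. For the interaction, leaving out 1 library gave 3 to 9 and 3 to 17 members and 54 to 421 and 24 to 200 genes, and DESeq2 90 and 31 genes. The large to small ratio without Rpl4 and Rpsa was 1.503 in untreated KO, 1.52 in untreated WT and 1.63 in CMC-treated KO, and per exon length 1.46 in untreated KO. The cause was not tested. Whether equal replicate numbers mark the same heart or RNA is not known. Correlations of same-numbered deviations were -0.125 to 0.0688, so the numbers were not used as pairs, though with a spread near counting noise these values could not show a pairing well; of the 12 correlations, untreated against CMC-treated KO replicates 2 and 3 were highest with their own number. The replicate block gave 74 and 1 members called untreated, 69 and 1 after CMC, 3 and 6 for CMC in WT, 11 and 28 in KO and 5 and 5 for the interaction.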

Other observations

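Of the protein-coding genes outside the rule with a mean of at least 50 CPM, those whose log2 level followed the mean log2 level of the members most closely over the 12 libraries were Atxn10, Gyg, Ctsd, Slc25a39, Slc38a2, Grpel2, Eef1a1, Fhl1, Fbxo40 and Gsto1, ranked among 3308 genes by Pearson correlation. The libraries fall into KO and WT clusters, so this ranking is given without a coefficient. As the members were higher in KO, the choice itself favours genes higher in KO, and their log2 fold changes in untreated libraries are given as a description, for example 1.14 for Fbxo40, a muscle ubiquitin ligase subunit, and 3.25 for Fhl1, a LIM protein of muscle.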
